A study of Rattus norvegicus with 24 samples.

Results

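These are 52 genes, of 32662 listed, that were far higher in the dorsal raphe than in the amygdala of rats and did not follow the raphe gene ENSRNOG00000003476 from library to library. They were chosen from measured levels. CPM is a gene's count scaled to a library total of 1000000, and a pooled CPM sums the counts and the totals of a region first. A gene had to reach 4 pooled CPM over the 12 dorsal raphe libraries and 8 times its pooled amygdala CPM plus 0.1. This left 93 genes. ENSRNOG00000020410 was then dropped, and ENSRNOG00000003476 was removed with the 39 genes whose log2(CPM + 1) had the highest Pearson r to it over the 12 dorsal raphe libraries, which left the 52 members.

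The study sequenced poly-A RNA from the amygdala and the dorsal raphe of 60-day-old rats of a high-responder and a low-responder line. The lines were bred for strong and weak responses to unfamiliar surroundings. Each of the 4 pairings of line and region has 6 libraries, which makes 24, and no treatment is named in the labels. Nothing in the labels says that the 6 are 6 different animals, or that a raphe and an amygdala library with the same number share a rat. What the p-values measure is therefore library to library spread, some of which may be technical.

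The dorsal raphe is a midline nucleus of the brainstem best known for serotonin neurons, which project widely through the forebrain. A dissected block of it also holds neurons that use other transmitters, glia, vessels and tissue next to the aqueduct, and its cells keep a brainstem pattern of transcription factors. The amygdala is a forebrain structure, so brainstem genes of any of these cell types can part the regions without belonging to serotonin neurons. The count tables list Ensembl IDs without symbols, and 0 rows of the RefSeq gene table used here (GRCr8) held any of these IDs. The members are therefore given by ID, their functions and sequences are not given, and the lists of cell type markers could not be applied to check the tissue. In bulk tissue, fewer cells of a type and less RNA per cell cannot be told apart.

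Library totals ranged from 9232983 to 20194601 counts. Low-responder raphe library 5 stood apart from the other raphe libraries, with 15% of its counts in the 10 most counted genes of the series, against 7.59% to 12.3% in the other 11. In the amygdala this share was 1.99% in low-responder library 3 and 3.07% in high-responder library 3, against 5.65% to 7.52% in the others. High-responder raphe library 1 held only 59.0 CPM of ENSRNOG00000003476, where the other 11 had at least 299 CPM. The removal of genes by their r to that gene leaned on this one library: without it the rule again gave 52 genes, but only 34 of them were among the members described here.

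The members ranged widely in level. Pooled dorsal raphe CPM was under 10 for 17 members, from 10 to under 50 for 29 and at least 50 for 6, with a median of 14.6 CPM. The median pooled amygdala level was 0.673 CPM and the highest 6.99 CPM. Together the 52 took 0.0859% to 0.154% of a raphe library and 0.00507% to 0.0103% of an amygdala library. The ratio used by the rule had a median of 14.8, lay under 16 for 27 members and reached at least 32 for 14. All of these values come from the contrast that chose the genes and are given as a description.

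**Figure D1:**
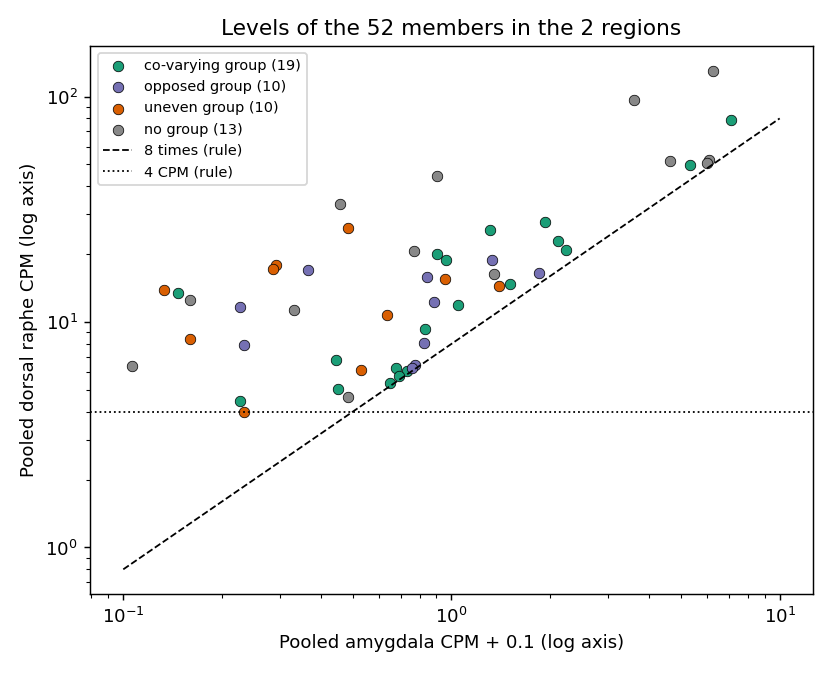
Pooled CPM of the 52 members in the dorsal raphe (vertical, log axis) against pooled amygdala CPM plus 0.1 (horizontal, log axis), with the thresholds of the rule as lines. Each point is 1 member, coloured by the groups of members that rose and fell together over the dorsal raphe libraries; many points lie just above the line for 8 times.

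The most abundant member was ENSRNOG00000052880. Its 6 high-responder raphe libraries lay from 98.5 to 158 CPM around a median of 128, and its low-responder ones from 104 to 172 around 125. In the amygdala it stood between 4.56 and 8.14 CPM. The next was ENSRNOG00000043451, with 69.5 to 149 CPM (median 95.1) in the raphe of the high-responder line, 60.4 to 139 CPM (median 90.2) in that of the low-responder line and 1.94 to 5.47 CPM in the amygdala. Both were thus plainly measured in the amygdala too, and stood in this set because of their raphe level.

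Other members were close to absent from the amygdala. ENSRNOG00000016311 had the highest ratio, 104, with 2123 counts over the raphe libraries and 5 over the amygdala libraries. ENSRNOG00000012478 followed at 91.4, with 2048 and 7 counts. ENSRNOG00000012720 had 973 raphe counts and 1 amygdala count, a ratio of 959 between pooled CPM with a 95% exact counting interval of 172 to 37897. Such intervals and floors cover counting error only, since no molecular identifiers are named in the labels and PCR copies of 1 molecule may each be counted. ENSRNOG00000012720 is named here after its values were seen.

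For 44 of the 52 members every raphe library lay above every amygdala library, against 10.3% of 14977 genes tested over both regions. The rule used this contrast, so nothing is read from the difference. The 8 members with overlap were of different kinds. In ENSRNOG00000005659 and ENSRNOG00000018892 a single raphe library fell within the amygdala range. In ENSRNOG00000027006 only 4 of the 12 raphe libraries lay above the amygdala range.

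At the thresholds the choice was narrow. ENSRNOG00000020503 entered at 4.00 pooled CPM, while ENSRNOG00000024729 missed at 3.92. ENSRNOG00000010560 entered at a ratio of 8.27 and ENSRNOG00000054843 missed at 7.98. The r to ENSRNOG00000003476 was 0.247 in the member nearest to removal, ENSRNOG00000001392, and 0.257 in the last gene removed, ENSRNOG00000059519. Over all members that r ran from -0.857 to 0.247 with 23 below 0, so some members had an r near 0 and others a negative one over these 12 libraries. High-responder library 1, with 59.0 CPM of ENSRNOG00000003476 against at least 299 CPM in the other 11, weighs on these values. The member with the lowest r, ENSRNOG00000031398, was highest in that library, at 23.0 CPM. How far the negative values rest on it was not tested.

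Members also differed in how steady they were over the raphe libraries. The coefficient of variation (the SD as a percent of the mean) of CPM over the 12 libraries had a median of 39.9%. It was under 20% for 8 members, over 50% for 14 and over 100% for 5. Counting error alone gives 2.52% to 13.9% at these depths. In ENSRNOG00000003476 and the 39 genes removed with it the median was 33.8%, and 0 of the 40 exceeded 100%, the highest being 60.0%. The difference between these 2 sets was not tested, since the removal used the same libraries.

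The steadiest member of at least 10 CPM was ENSRNOG00000016102. High-responder raphe held 40.6 to 53.9 CPM (median 45.6) and low-responder raphe 38.2 to 43.8 CPM (median 42.0), a coefficient of variation of 9.98% where counting error gives 4.32%. ENSRNOG00000011180 came next at 10.6%, close to its counting error of 8.58%, with 9.56 to 11.9 CPM in the one line and 9.51 to 13.4 CPM in the other, high-responder first. In both the lines overlapped, and the highest raphe library was 1.41 times the lowest.

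To see which members moved together, they were grouped by average linkage on Pearson r of log2(CPM + 1) over the 12 raphe libraries, keeping groups of at least 3 with a mean r of at least 0.5. This gave 3 groups, of 19, 10 and 10 members, and 13 members joined none. The points of each r are the same 12 libraries, so depth and dissection are shared by all pairs. The groups were formed from these values and are a description. The group of 19, called the co-varying group here, had a median r of 0.830 over its 171 pairs, all above 0. One group of 10 ran the other way, with 187 of its 190 pairs with the co-varying group below 0 (median r -0.449), and is called the opposed group. The last group of 10, called uneven, spanned coefficients of variation from 23.0% to 188% and held 4 of the 5 members over 100%, the fifth being ENSRNOG00000027006, in no group.

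**Figure D2:**
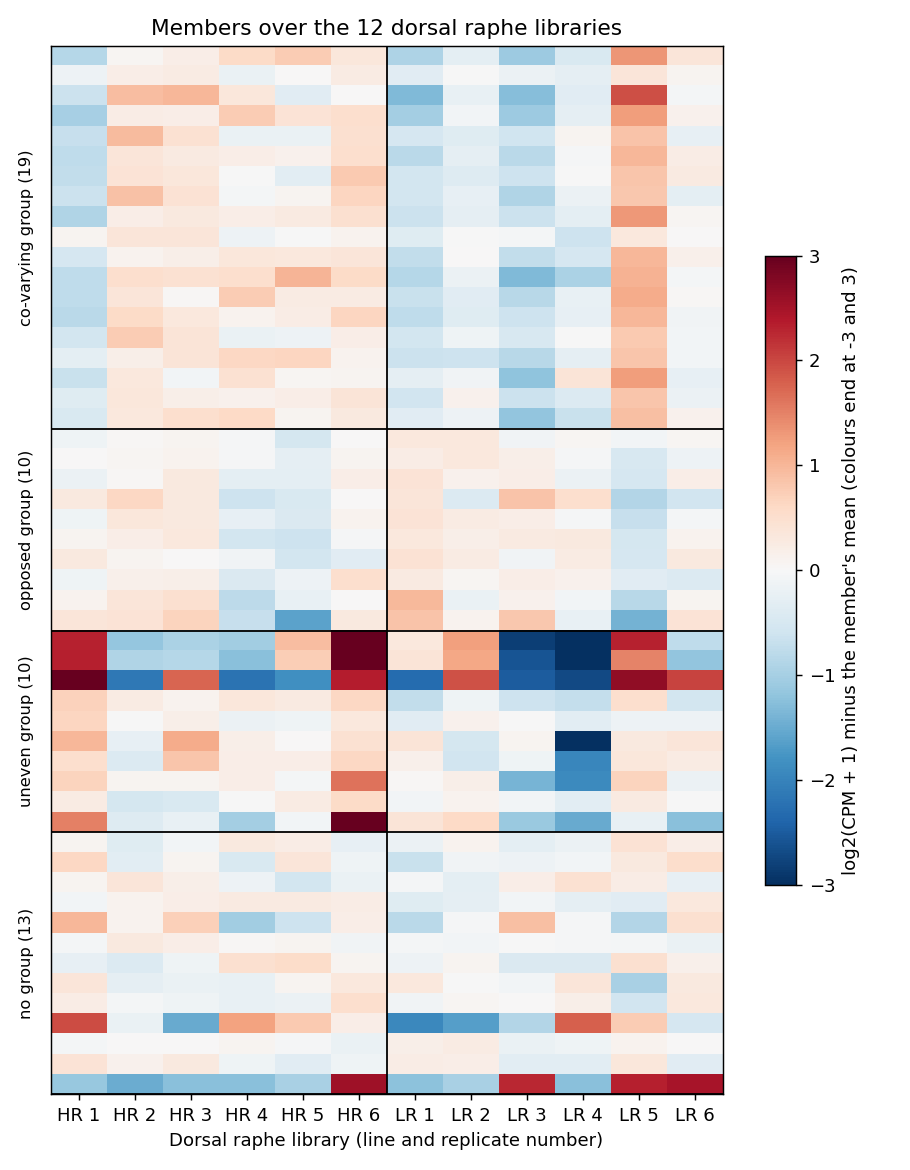
Log2(CPM + 1) of each member (rows, by group) minus its mean over the 12 dorsal raphe libraries (columns, high-responder 1 to 6 then low-responder 1 to 6). The co-varying group is low in high-responder library 1 and low-responder libraries 1 and 3 and highest in low-responder library 5, and several rows of the uneven group have the deepest colours.

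The co-varying group summed to 184 to 681 CPM over the raphe libraries. High-responder library 1 lay at 204 CPM, below the other 5 of its line, which kept between 385 and 424 CPM. Low-responder libraries 1 and 3 were as low, at 191 and 184 CPM, while low-responder library 5 reached 681 CPM. Library 5 was the highest of the 12 for 16 of the 19 members, against 14.1% of 14977 genes and 1 of the 33 other members. The lowest library was one of those 3 low ones for 18 of the 19. The group was formed over these same libraries, so both counts are a description and nothing is read from the shares. For 10 of the 19 members the lowest level was in low-responder library 3 and the highest in library 5. Among these were the abundant ENSRNOG00000059865, at 31.8 to 173 CPM, and the scarcer ENSRNOG00000006422, at 2.55 to 17.3 CPM. The size of the swing differed within the group. ENSRNOG00000001873, named after its values were seen, ran only from 38.4 CPM in low-responder library 1 to 62.6 CPM in library 5. ENSRNOG00000012478 was lowest in low-responder library 4 and highest in high-responder library 3, at 2.09 times the lowest.

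The same 19 members were also uneven in the amygdala, whose libraries played no part in forming the group. Their summed level was 59.3 CPM in high-responder amygdala library 2, and 45.9 and 69.3 CPM in low-responder amygdala libraries 4 and 6. The other 9 amygdala libraries lay between 14.4 and 19.8 CPM, so these 3 stood apart in both lines. Member by member, the 3 highest of the 12 amygdala libraries were exactly these for 14 of the 19. This held for 1.62% of 14977 genes and for 1 of the 33 other members. The 3 libraries were picked by the sum of these same 19 members. Members that move together are not separate observations, so these counts are a description.

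ENSRNOG00000029586, named after its values were seen, is an example. In the raphe it lay at 10.4, 25.8, 25.4, 38.0, 29.5 and 31.4 CPM in high-responder libraries 1 to 6, and at 10.3, 20.8, 9.68, 17.9, 53.6 and 24.1 CPM in low-responder libraries 1 to 6. In the amygdala it lay at 4.56 CPM in high-responder library 2 and at 2.96 and 5.95 CPM in low-responder libraries 4 and 6. The other 9 amygdala libraries were at or below 0.608 CPM, 3 of them without a count. The table line just before it belongs to ENSRNOG00000061650, another member of the co-varying group. What sets these 3 amygdala libraries apart was not tested.

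**Figure D3:**
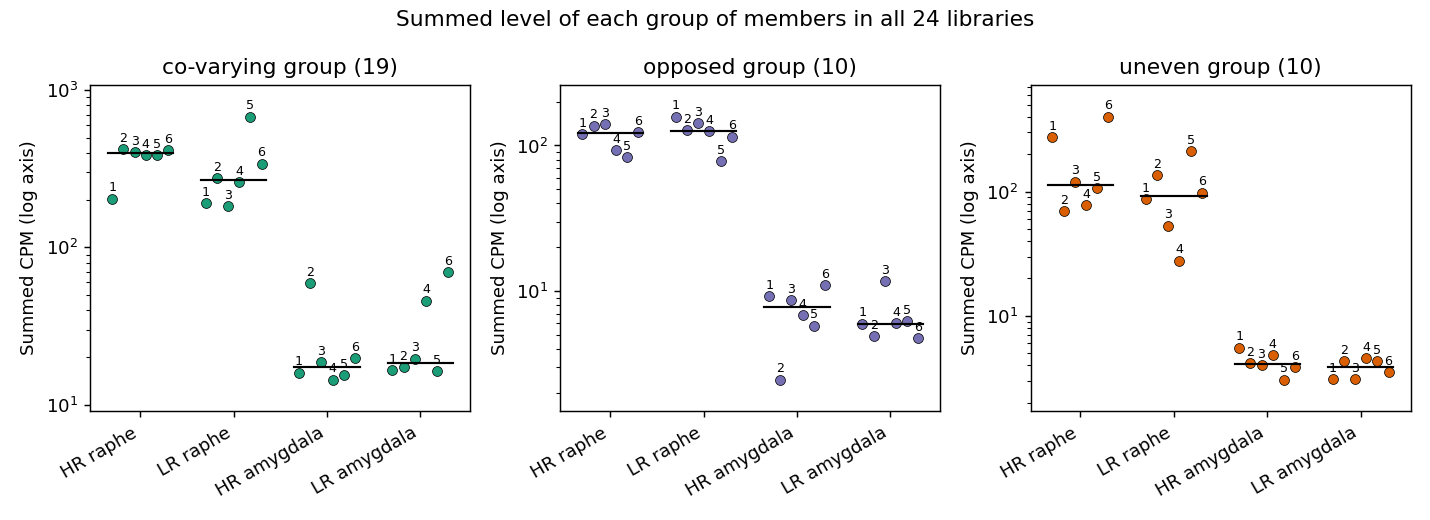
Summed CPM (log axis) of the 3 groups of members in every library, with the replicate number at each point and the group median as a line. In the co-varying group amygdala libraries high-responder 2 and low-responder 4 and 6 lie at 45.9 to 69.3 CPM, above the other 9 at 14.4 to 19.8 CPM.

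The opposed group varied less. Its 10 members summed to 77.8 to 158 CPM over the raphe libraries, and coefficients of variation ran from 15.1% to 51.2%. Low-responder library 5, where the co-varying group was highest, gave the lowest level for 5 of the 10, and low-responder library 1, where that group was low, gave the highest for 7. In the amygdala the summed level was 2.47 CPM in high-responder library 2, the lowest of the 12, and 11.7 CPM in low-responder library 3, the highest. ENSRNOG00000013588 had the lowest r of any pair of members, -0.930, with ENSRNOG00000055694, a member outside the groups.

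The uneven group summed to 27.8 CPM in low-responder raphe library 4 and to 402 CPM in high-responder library 6, a 14.4-fold range, while its amygdala sum kept within 3.07 to 5.55 CPM. High-responder library 6 was the highest for 5 of its 10 members and low-responder library 4 the lowest for 7. Its highest sums were in high-responder libraries 1 and 6 and low-responder library 5, with 275, 402 and 212 CPM. Low-responder library 5 was thus high in both groups, and high-responder library 1 was low in one and high in the other.

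ENSRNOG00000003569 was the most variable member of at least 10 pooled CPM. High-responder raphe libraries 1 to 6 held 42.8, 3.64, 3.77, 2.65, 13.5 and 115 CPM, and low-responder libraries 1, 2, 3, 5 and 6 held 10.4, 18.4, 0.440, 23.4 and 2.82 CPM. Low-responder library 4 had 0 counts, which allows up to 0.262 CPM with a floor of 3 counts per library. ENSRNOG00000012575 followed it closely, with an r of 0.984, the highest of any pair. It ran from 0.175 CPM in low-responder library 4 to 118 CPM in high-responder library 6. In the amygdala both stayed at or below 1.11 CPM in every library.

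Some members were present in some raphe libraries and near the amygdala level in the rest. Of the 52, 46 were at 1 CPM or more in all 12 raphe libraries and 6 fell under 1 CPM in at least 1. One of these was ENSRNOG00000027006. It stood at 16.6 CPM in high-responder library 6 and at 13.5, 14.3 and 15.7 CPM in low-responder libraries 3, 5 and 6. The other 8 raphe libraries had 1 to 6 counts each, at most 0.542 CPM, and no library lay between. All 12 amygdala libraries stood at or below 0.647 CPM, the numbers 3, 5 and 6 included. The 4 high libraries come from both lines, and this pattern was not shared by the co-varying or the uneven group. Its pooled 4.64 CPM thus averages 2 separate levels.

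ENSRNOG00000005911 also fell into 2 levels, in other libraries. It stood at 56.9, 22.7 and 35.1 CPM in high-responder libraries 1, 3 and 6 and at 25.8, 44.2 and 28.0 CPM in low-responder libraries 2, 5 and 6. The other 6 raphe libraries were at or below 0.975 CPM. The amygdala libraries reached at most 0.327 CPM. The split runs through both lines evenly, 3 libraries high and 3 low in each. ENSRNOG00000016311 had 1 low library only, low-responder library 4 at 0.436 CPM, where the other 11 held 7.37 to 25.1 CPM. ENSRNOG00000027006 and ENSRNOG00000005911, like ENSRNOG00000017302 next, were singled out after their values were seen.

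ENSRNOG00000017302, in no group, gave yet another order. It was highest in high-responder library 1 and low-responder library 4, at 36.1 and 32.4 CPM, and lowest in low-responder library 1 at 1.53 CPM. Low-responder library 4, which held the least of most uneven members, thus held the second highest level of this one. Unevenness among the members was therefore not a single order of the libraries.

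**Figure D4:**
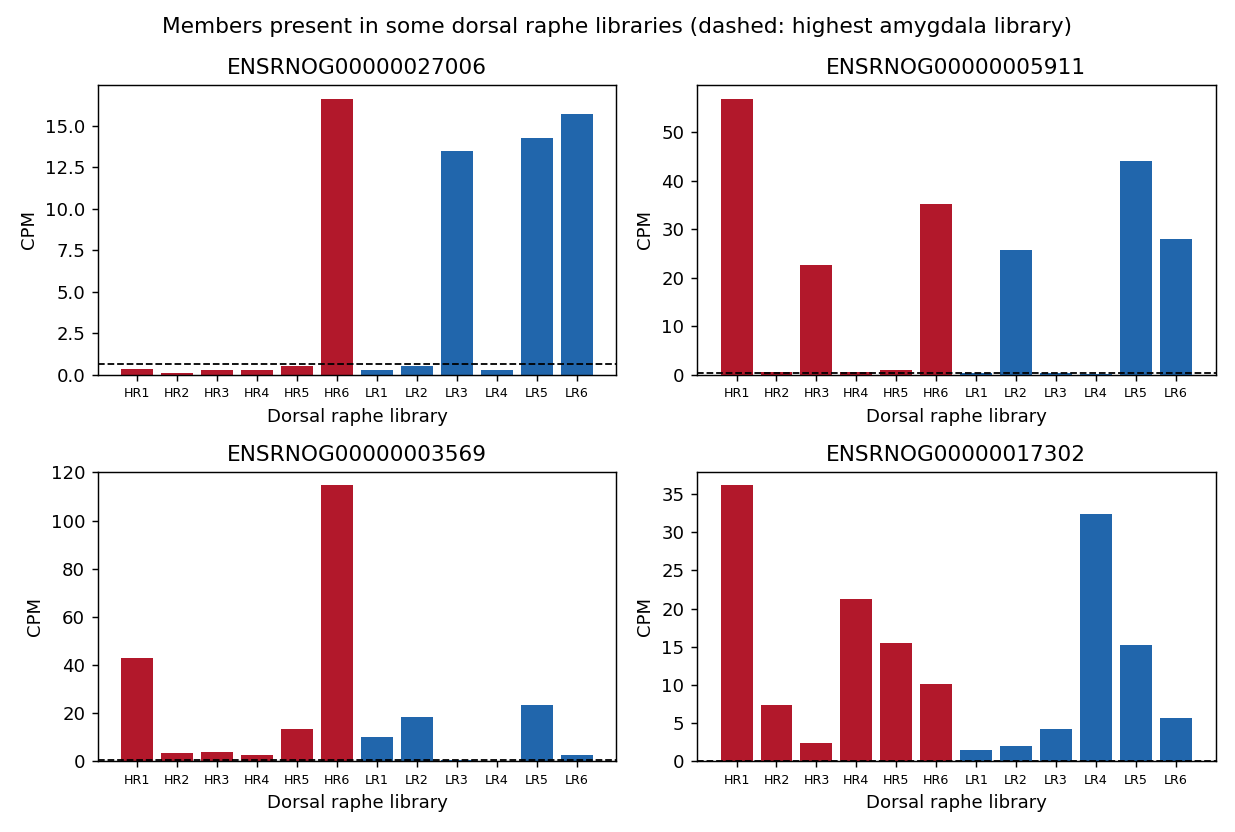
CPM of 4 members in each dorsal raphe library (bars; red, high-responder; blue, low-responder), with the highest amygdala library as a dashed line. ENSRNOG00000027006 is high in 4 libraries and ENSRNOG00000005911 in 6, with only part of them in common, and neither split follows the line.

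Position in the deposited tables was shared by some members. The meaning of the line order is not given in the sources used here. Of the 52, 13 had another member within 15 table lines, in 5 runs. The longest run held ENSRNOG00000017302, ENSRNOG00000012720, ENSRNOG00000012742 and ENSRNOG00000033609 within 14 lines, and another held ENSRNOG00000016311, ENSRNOG00000011533 and ENSRNOG00000011180 within 11. Some neighbours fell in the same group: ENSRNOG00000061650 and ENSRNOG00000029586, on adjacent lines, were both in the co-varying group, and ENSRNOG00000012742 and ENSRNOG00000033609 both in the opposed group. Others did not. In the first run ENSRNOG00000017302 was among the most uneven members and the other 3 were steady. In the second, ENSRNOG00000016311 dropped out in low-responder library 4 while ENSRNOG00000011180 was steady over all 12. Neighbouring IDs can share reads where genes overlap, and the strand setting of the counting is not given.

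The 2 lines were compared within the dorsal raphe, a contrast the rule did not use, to ask which members differ between them. All low-responder libraries carry lower library numbers (described with the last comparison) than all high-responder ones. Line and number order can therefore not be told apart in comparisons of the lines. The test was edgeR's quasi-likelihood test on all 14390 genes that passed a low count filter, with Benjamini-Hochberg adjustment over all of them. Of the 52 members, 51 were tested and ENSRNOG00000027006 was not. None passed: 0 of 51, where 0.0625% of all genes did, 0.0347% higher and 0.0278% lower in high responders. With edgeR 2 members had an unadjusted p under 0.05, where 5.05% of all genes did. DESeq2 and limma voom with quality weights also called 0. At an unadjusted p under 0.05 DESeq2 had 3 members, with 5.68% of all genes, and limma voom 18, with 12.4% of all genes. The 6 libraries of one line were clear of the 6 of the other for 0 of the 51, against 0.751% of all genes.

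The member nearest to a difference was ENSRNOG00000011823, of the uneven group. Its high-responder libraries held 15.8 to 24.1 CPM (median 18.1) and its low-responder libraries 8.24 to 20.9 CPM (median 9.29). The overlap came from low-responder library 5 at 20.9 CPM, the other 5 lying at or below 13.2 CPM and thus under the whole other line. The log2 fold change, high over low responder, was 0.69 (SE 0.24, edgeR unadjusted p = 0.0146, adjusted p = 0.789). Without low-responder library 5 it was 0.99 (SE 0.16) and passed (edgeR adjusted p = 0.0466), the one call among the members in that fit. The share of all genes called in that fit is not given here. Library 5 is also the one that made the lines overlap, and the other 11 fits that left out 1 library called 0 members. In the later-numbered libraries alone (described with the last comparison) the log2 fold change was 0.28, with an edgeR adjusted p above 0.99. The next was ENSRNOG00000056184, whose high-responder mean was 57.4 ± 5.11 CPM and low-responder mean 46.0 ± 9.16 CPM (SD over 6 libraries). Its fitted log2 difference was 0.29 (SE 0.12, edgeR adjusted p = 0.917), and low-responder library 6, at 63.7 CPM, lay above all of the other line.

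Among members with lower estimates in high responders ENSRNOG00000033609 came first, with means of 17.4 ± 2.50 CPM there and 19.9 ± 2.70 CPM in low responders (SD over 6 libraries). The fitted log2 difference was -0.23 (SE 0.11, edgeR adjusted p = 0.999). ENSRNOG00000059793 followed, with means of 7.42 ± 1.71 and 8.70 ± 2.09 CPM in the same order and a fitted difference of -0.26 (SE 0.18, edgeR adjusted p = 0.999). Neither passed, and in both members the libraries of the lines overlapped.

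Over the members the median log2 fold change between lines was 0.11, and -0.01 over all genes tested. It was 0.18 in the co-varying group, with 16 of 19 estimates above 0. Single low-responder libraries moved that median: it was 0.02 without library 1, 0.03 without library 3 and 0.57 without library 5. In the opposed group the median was -0.12, and between -0.22 (without low-responder library 5) and -0.03 (without high-responder library 5) when 1 library was left out. In the uneven group it was 0.64, with all 10 estimates above 0, and 0.42 with 7 above 0 without high-responder library 6. The other libraries whose loss moved the co-varying median over 1.5 times were high-responder 1 (0.28) and low-responder 4 (0.11). Members of a group move together, so these signs are not separate observations. In the earlier-numbered libraries of each line alone, 0 of 51 members passed with edgeR, and 11 had an unadjusted p under 0.05, as did 8.43% of all genes. There all 19 estimates of the co-varying group were above 0, with a median of 0.53. In the later-numbered libraries alone 0 of 52 passed (1 at an unadjusted p under 0.05, with 1.63% of all genes), and 18 of those 19 estimates were below 0, with a median of -0.34. The later set holds only 2 low-responder libraries, and the sign there rested on library 5: the summed co-varying group was 681 CPM in it and 341 CPM in library 6, against 385 to 418 CPM in the 3 later high-responder libraries.

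In the amygdala most members were too low to test. Of the 52, 15 passed the low count filter there and 0 were called by edgeR, where 0.021% of all 14265 genes were. With edgeR 2 had an unadjusted p under 0.05, where 8.34% of all genes did. DESeq2 and limma voom also called 0. At an unadjusted p under 0.05 DESeq2 had 1 member, with 8.78% of all genes, and limma voom 6, with 19.5%. One of the 2 was ENSRNOG00000056184, with amygdala means of 5.51 ± 1.03 CPM in high and 3.74 ± 1.41 CPM in low responders (SD over 6 libraries). Its log2 difference there was 0.55 (SE 0.22, edgeR adjusted p = 0.531). It had the same sign as in the raphe.

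Whether the line difference of a member differed between the regions was tested on all 24 libraries. Of 51 members tested 0 passed with edgeR, where 0.00668% of 14977 genes did, and 4 had an unadjusted p under 0.05, with 3.06% of all genes there. DESeq2 and limma voom called 0 members too. At an unadjusted p under 0.05 DESeq2 had 7, with 3.2% of all genes, and limma voom 17, with 11.1%. The smallest p was that of ENSRNOG00000011180, whose amygdala level was at or below 0.608 CPM in every library. Its difference was -1.36 on the log2 scale (SE 0.47, edgeR unadjusted p = 0.00802, adjusted p above 0.99). Most members had few amygdala counts, and what size of difference between regions could be found at this depth was not tested.

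Library numbers, which stand in the first line of each table, break into an earlier and a later run within each group. Every low-responder library has a lower number than every high-responder one. The later low-responder libraries are thus numbered before the earlier high-responder ones, and line cannot be told apart from the order of the numbers. In the raphe the later run holds high-responder libraries 4, 5 and 6 and low-responder libraries 5 and 6, 5 in all, against 7 earlier ones. The widest break was used, and the high-responder raphe numbers break again before library 6. What the number stands for is not given in the sources used here. Later libraries were compared with earlier ones with line as a covariate. By edgeR, 17 of 51 members passed, or 33.3%, with 13 up and 4 down in the later run. Of all 14390 genes 48.1% passed, 24.3% higher and 23.8% lower, so a call here was no more common among the members than in the whole table. At an unadjusted p under 0.05 there were 23 members, with 56% of all genes. With library totals alone for scaling the split was 10 higher and 5 lower among members and 2550 higher and 4110 lower among all genes.

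By group the calls went different ways. In the co-varying group 9 of 19 rose and 0 fell, with a median log2 fold change of 0.80. In the opposed group 4 of 10 fell and 0 rose, with a median of -0.38. In the uneven group 1 of 10 passed, and among the members in no group 3 of 12 tested. Over all genes the median was 0.03. The genes removed for following ENSRNOG00000003476 were chosen over these same libraries. Whether that choice had a part in which calls were left among the members was not tested.

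ENSRNOG00000059865, the most abundant member of the co-varying group, had the largest called difference. Its later high-responder libraries held 104, 117 and 86.8 CPM and its earlier ones 37.5, 72.0 and 79.7 CPM. Its later low-responder libraries held 173 and 88.7 CPM and its earlier ones 31.8 to 56.5 CPM, so later libraries lay above earlier ones in both lines. The log2 fold change was 1.21 (SE 0.25, edgeR adjusted p = 0.00289). ENSRNOG00000006422 followed at 1.12 (SE 0.32, edgeR adjusted p = 0.0129), which without low-responder library 5 was 0.69 and did not pass (edgeR adjusted p = 0.0813).

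On the other side ENSRNOG00000013588 fell by 0.91 (log2, SE 0.20, edgeR adjusted p = 0.00385). It held 9.23, 10.4 and 14.8 CPM in later and 18.3, 23.2 and 18.2 CPM in earlier high-responder libraries. In low-responder raphe it held 7.59 and 9.62 CPM in later libraries and 10.8 to 27.5 CPM in earlier ones, again without overlap within a line. ENSRNOG00000001152 fell by 0.68 (SE 0.26, edgeR adjusted p = 0.0434), and its call ended in 7 of 12 fits that left out 1 library.

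Much of this comparison rested on low-responder library 5. Without it 8 of 51 members passed, 5 higher and 3 lower, and 7 of the 8 were among the 17. Calls over all genes fell too, to 34.1% of 14458, 14.8% higher and 19.3% lower. The co-varying group then had 3 of 19 called, with 15 of 19 estimates above 0 and a median of 0.36. Only 1 other low-responder library is in the later run. The share of counts in the 10 most counted genes, high in that library, was not tested as a part of these differences.

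**Figure D5:**
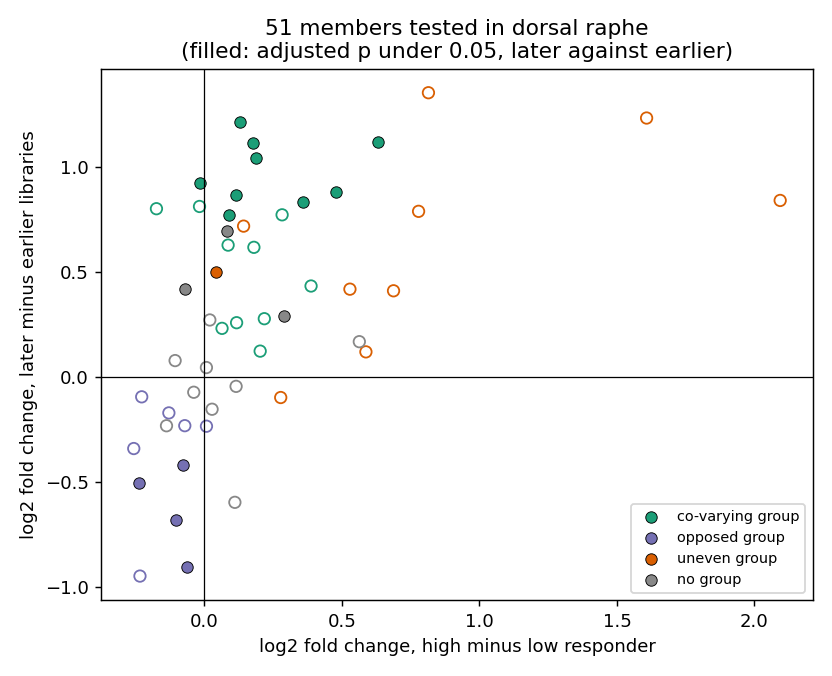
Log2 fold change between lines (horizontal) and between later and earlier libraries (vertical) of the 51 members tested in the dorsal raphe, filled where the later against earlier comparison passed. Members of the co-varying group lie above 0 and those of the opposed group below 0 on the vertical axis, and no member passed on the horizontal axis.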

How the data were processed

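RNA came from Qiagen miRNeasy extraction and went into poly-A libraries, per the labels' protocols. The authors deposited 1 table per library, of unnormalized read counts by gene. Trim Galore, STAR and build rn6 are named in the submitters' processing notes. Versions, the counting program, the annotation and the strand setting are not given in the sources used here. Each table lists the same 32662 IDs.

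The members, the lists and the comparisons were chosen with earlier results of these data known. CPM was computed from library totals, and members by the rule in the report. Tests used edgeR 4.0.16 in R 4.3.3 (filterByExpr, TMM, glmQLFit, glmQLFTest, adjusted p under 0.05 over all genes tested), with DESeq2 1.42.0 and limma 3.58.1 as alternatives. Each edgeR SE was derived as the size of the fitted log2 value over the root of its F statistic. The fits were tested on simulated counts with 200 changed genes. Those counts had the same spread setting for every gene and no library effects, so they do not show what the fits can find in these data. The rule for named genes took members with the highest level, the highest ratio, the lowest and highest coefficient of variation, the smallest line p, the values nearest each threshold and the largest called difference by library number; without symbols 2 per kind are printed, and further members are marked as chosen after their values were seen. Grouping members by r was added after the data were seen. A chi-square test between libraries of a group gave at least 3.46 per degree of freedom, above counting noise, so no library was treated as a duplicate.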

Additional observations from a re-analysis of the deposited data

Results flagged for a closer look

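In 54 groups of 6 libraries examined for values printed here, 11 had 1 library far outside the range of the remaining 5. A rate of 1 in 20 would give 2.7. Several members were printed for their spread or after their values were seen. That rate therefore does not apply to them, and nothing is read from the 11. Many of these values come from members that move together, so the 11 are not independent. In high-responder raphe library 6, ENSRNOG00000003569 stood at 115 CPM against at most 42.8 in the others and ENSRNOG00000027006 at 16.6 CPM against at most 0.542. In low-responder raphe library 5, ENSRNOG00000006422 stood at 17.3 CPM against at most 7.53, ENSRNOG00000029586 at 53.6 CPM against at most 24.1 and the summed co-varying group at 681 CPM against at most 341. That sum was low in high-responder raphe library 1, at 204 CPM against at least 385, and high in high-responder amygdala library 2, at 59.3 CPM against at most 19.8. The summed opposed group was high in low-responder amygdala library 3, at 11.7 CPM against at most 6.26.

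Smaller gaps were found in steady members. In low-responder raphe library 6, ENSRNOG00000016102 stood at 38.2 CPM against at least 41.7 in the others and ENSRNOG00000056184 at 63.7 CPM against at most 48.0. ENSRNOG00000033609 stood at 12.6 CPM in high-responder raphe library 5 against at least 16.9.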

How the results depend on the processing

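The count of members called between lines stayed at 0 under all 22 alternatives in the amygdala and all 34 for the difference between regions; in the raphe 21 of 22 gave 0, and leaving out 1 library gave 0 to 1. The count of 17 for later against earlier libraries ranged from 8 to 21 over 12 fits without 1 library, with 8 without low-responder library 5. With the replicate number as a block the count was 3, all higher, from a fit that can part later from number only through library 4. The share of all genes called is not given for that fit, nor for those that left out another library. Nothing is read from these counts alone. The r of deviations from the group means was taken between equal-numbered libraries. Its median across lines was 0.17 in the raphe and 0.03 in the amygdala. Between raphe and amygdala it was -0.06 in high responders and -0.02 in low responders. Across lines, r was over 0.1 in 3 of 6 raphe pairs and 2 of 6 amygdala pairs. Between raphe and amygdala it was over 0.1 in 1 of 6 pairs in each line. Across lines, 2 of 12 raphe and 4 of 12 amygdala libraries correlated best with their own number, and between regions 1 of 12 in each line did. So few pairs cannot settle whether a raphe and an amygdala library with the same number share a rat. The block left the 0 calls of the 3 line comparisons at 0. With 0.5 in place of 0.1 added to the amygdala level the rule gave 22 members, all among the 52, since its fixed 39 removals are then taken from fewer genes. With high-responder libraries alone it gave 58, of which 37 were among the 52, and with low-responder libraries alone 48, of which 29 were. The median coefficient of variation was 40.4% with TMM factors. The co-varying group kept all 19 members, within a largest group of 19 to 21, at a mean r of 0.6 or 0.4, with Spearman's rho and without low-responder library 5, alternatives chosen after seeing the data.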
